A study of Mus musculus with 2 samples.

Results

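The Lin28, Igf2bp and Hmga2 heterochronic genes are 9 of the 31053 genes counted in this series: Lin28a, Lin28b, Trim71, Igf2bp1, Igf2bp2, Igf2bp3, Hmga2, Arid3a and Igdcc3. They were chosen by symbol, and the choice was made with their measured levels at both stages in view. Their levels and ratios are therefore given as a description, with no test. Cells came from C57BL/6 mouse embryos with no transgene or treatment named, at the stages E10.5 and E11.5 (days of embryonic development), and each stage was 1 library of the 10x 3′ single-cell assay. Each library mixed the dorsal aorta and its surroundings with the fetal liver, and how many embryos were pooled is not given in the sources used here. The series concerned the precursors of haematopoietic stem cells. Neither stage has a replicate, so the stages cannot be tested against each other, and the 95% intervals cover counting error only.

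Heterochronic genes set the timing of developmental events and were found in the nematode. The LIN28 proteins bind precursors of the let-7 microRNAs at a GGAG motif and recruit uridylyl transferases, which keeps mature let-7 from forming. Mature let-7 in turn represses many mRNAs of early embryonic and fetal cells, among them those of Lin28, Trim71, Hmga2 and the Igf2bp family. In blood, Lin28b, Igf2bp and Hmga2 are known as parts of the fetal programme of stem cells and progenitors. The 3′ assay used here does not measure mature microRNAs, so let-7 itself was not measured.

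The sequences of let-7 and the matches to its seed are shown first. Every one of the 9 genes carries such a match in its 3′ untranslated region (UTR). The 8 mature let-7 microRNAs found in the RefSeq table (build GRCm38.p6) shared 1 seed, bases 2 to 8, given in capitals. The 3 below differ from one another only outside it.
mmu-let-7a-5p: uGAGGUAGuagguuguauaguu
mmu-let-7d-5p: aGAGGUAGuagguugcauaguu
mmu-let-7g-5p: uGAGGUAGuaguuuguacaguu
The GGAG motif to which LIN28 is known to bind was found between the arms of 9 of 11 let-7 hairpins on the hairpin strand, and not in those of Mirlet7b and Mirlet7c-2. One hairpin with the motif in capitals (Mirlet7g, chr9:106178840-106178927, plus strand) and one without it (Mirlet7b, chr15:85707319-85707403, plus strand) are given for comparison.
Mirlet7g: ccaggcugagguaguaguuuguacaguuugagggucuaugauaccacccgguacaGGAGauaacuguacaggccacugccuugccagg
Mirlet7b: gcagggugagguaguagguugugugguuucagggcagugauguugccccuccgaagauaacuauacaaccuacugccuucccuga

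The seed match CTACCTC was searched on the sense strand of the longest annotated 3′ UTR of each gene (mm10, GENCODE). It was present in 1890 of 20971 genes with a 3′ UTR (9.01%), and its 8-base form CTACCTCA in 642 (3.06%). All 9 members held at least 1 match of the 8-base form. Most of them were already known as mRNAs that let-7 represses, so matches could be foreseen from the choice of genes. The count is no separate evidence of a link to let-7. Lin28b, Igf2bp1, Hmga2 and Trim71 held 4 seed matches each, whereas 32 of all genes (0.153%) held 3 or more. Longer UTRs hold more matches by their length alone, and among genes with UTRs within 10% of the length of the Igf2bp1 UTR (6337 bases) 35.5% had a match. The shortest UTR was that of Igdcc3, at 538 bases with 2 matches, and 4.11% of genes of such length had any. Arid3a and Lin28a also had 2 each, and Igf2bp2 and Igf2bp3 had 1 each. One 8-base match of each gene is given with the bases before it, and a match is a description of the letters and not a measured site.
Lin28a (chr4:134005189-134005211, minus strand): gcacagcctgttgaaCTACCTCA
Lin28b (chr10:45381022-45381044, minus strand): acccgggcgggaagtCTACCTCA
Trim71 (chr9:114512472-114512494, minus strand): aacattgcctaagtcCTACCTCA
Igf2bp1 (chr11:95961778-95961800, minus strand): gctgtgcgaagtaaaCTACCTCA
Igf2bp2 (chr16:22059473-22059495, minus strand): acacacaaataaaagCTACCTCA
Igf2bp3 (chr6:49086787-49086809, minus strand): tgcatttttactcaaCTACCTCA
Hmga2 (chr10:120364224-120364246, minus strand): gccgacattcaatttCTACCTCA
Arid3a (chr10:79953895-79953917, plus strand): aaggcaagtttctttCTACCTCA
Igdcc3 (chr9:65185707-65185729, plus strand): tgtgactctcagcacCTACCTCA

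**Figure D1:**
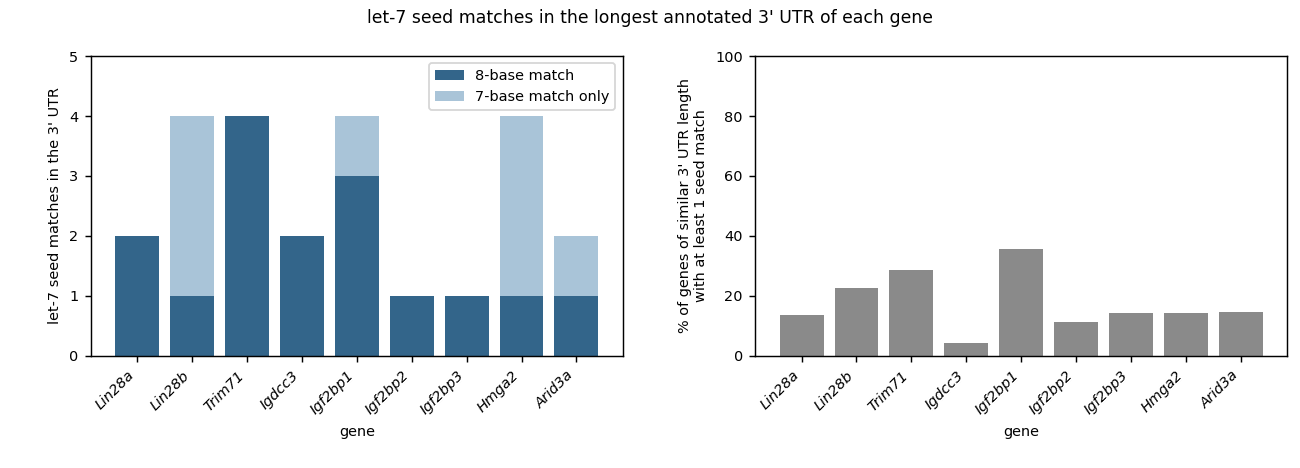
Left, number of let-7 seed matches (CTACCTC) in the longest annotated 3′ UTR of each of the 9 genes, with 8-base matches in dark blue. Right, percentage of genes with a UTR within 10% of that length that hold at least 1 match, from 4.11% for the length of Igdcc3 to 35.5% for that of Igf2bp1.

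The E10.5 library gave 8009 cells with a median of 15479 UMIs (unique molecular identifiers, which mark single molecules), and the E11.5 library 8976 cells with a median of 13131. Levels are UMIs summed over cells, as counts per 1000000 (CPM) of genes other than haemoglobin and mitochondrial genes. Of 50 clusters, 36 were named by likeness to marker genes, and the unnamed ones held 42.5% of E10.5 cells and 42.1% of E11.5 cells. Each stage is 1 library, so stage, dissection and library cannot be told apart in any comparison, and in 29 clusters over 95% of cells came from 1 library. A total of 37 barcodes occurred in both libraries. Counts do not show whether the counting used strand, and Igf2bp1, Igf2bp3, Hmga2 and Trim71 overlap genes on the opposite strand (Gm29202, Malsu1, 1700006J14Rik with 9230105E05Rik, and C130032M10Rik). Their reads cannot be told apart from those of these partners if strand was not used.

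Over all cells, all 9 genes were lower at E11.5 than at E10.5. Igdcc3 was at 131 CPM at E10.5 and 12.8 CPM at E11.5, a log2 ratio of −3.35 (95% interval −3.42 to −3.28). Lin28a was at 12.2 and 2.66 CPM, a log2 ratio of −2.20 (−2.37 to −2.03), and Trim71 at 28.5 and 11.7 CPM, a log2 ratio of −1.29. These 3 were at least 2-fold lower, and no member was 2-fold higher. Among all genes with at least 20 UMIs, 4.49% were at least 2-fold lower and 16.1% at least 2-fold higher, and the median log2 ratio was 0.16, against −0.66 over the 9 genes. The other 6 ranged from Hmga2, at 771 and 736 CPM (−0.07), to Arid3a, at 74.7 and 44.8 CPM (−0.74). The ratio over all cells also reflects the mix of cell types, so the ratios were taken within groups of like cells. Over the groups in which each gene was counted (8 for Lin28a, 11 for Igdcc3 and Trim71, 10 for Lin28b, 12 for the others), the median log2 ratio was −3.66 for Lin28a, −2.19 for Igdcc3, −1.25 for Trim71, −0.90 for Lin28b and −0.64 for Arid3a, and between −0.41 and −0.05 for Hmga2 and the Igf2bp genes. The means were −3.18 for Lin28a and −1.82 for Trim71, and they include 2 and 1 ratios that rest on 1 UMI at E11.5.

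**Figure D2:**
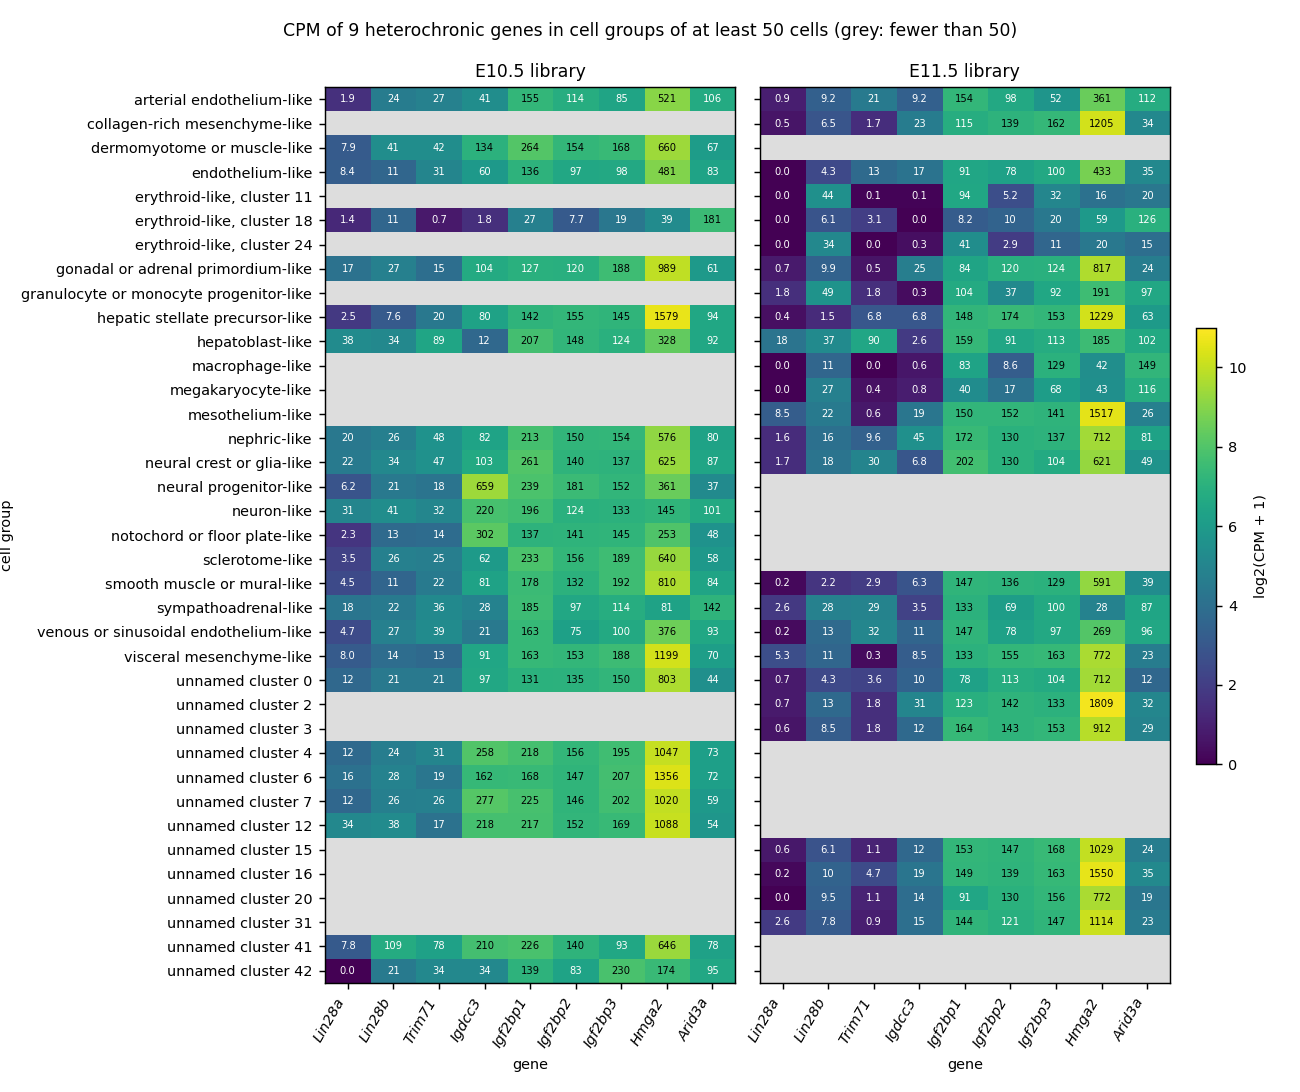
CPM of the 9 genes (columns, printed in each cell) in groups of at least 50 cells (rows), with colour as log2(CPM + 1), in the E10.5 and the E11.5 library; grey rows had fewer cells. Hepatoblast-like cells hold the highest Lin28a levels of these groups, 38.1 and 17.9 CPM, and Igdcc3 reaches 659 CPM in neural progenitor-like cells at E10.5.

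Within 12 groups that held at least 50 cells in each library, between 1 and 5 of the 9 genes were at least 2-fold lower at E11.5, and none was 2-fold higher in any. The groups with the most were smooth muscle or mural-like and gonadal or adrenal primordium-like cells, with 5 of 9 each. In smooth muscle or mural-like cells the 5 were Lin28a, Lin28b, Trim71, Arid3a and Igdcc3, against 3.72% lower and 8.56% higher of all genes. In gonadal or adrenal primordium-like cells the same 5 genes were lower, against 5.47% and 14.8%. These 2 classes, and the nephric-like and hepatoblast-like ones, lie mostly in different clusters at each stage, so the stages were compared over pooled clusters and not within one. The nephric-like class joined clusters 21 and 29, with 276 and 159 cells at E10.5 and 21 and 36 at E11.5, and cluster 34, with 0 and 141. Its ratios therefore also reflect the mix of these clusters.

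Visceral mesenchyme-like cells had 3 of 9 genes at least 2-fold lower (Trim71, Arid3a and Igdcc3), where 3.38% of all genes were lower and 7.62% higher. Sympathoadrenal-like cells also had 3 (Lin28a, Hmga2 and Igdcc3), against 6.14% and 12.8%. Among neural crest or glia-like cells all 9 were below 0 and 2 were 2-fold lower (Lin28a and Igdcc3), against 2.97% and 6.22%. Nephric-like cells had 2 as well (Lin28a and Trim71), against 4.13% and 11.7%. Hepatoblast-like cells had 2 of 9 (Lin28a and Igdcc3), against 4.66% and 8.05%.

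Endothelium was compared in 3 groups. Venous or sinusoidal endothelium-like cells had 2 of 9 (Lin28a and Lin28b), against 2.14% lower and 5.9% higher, and arterial endothelium-like cells 2 of 8 counted (Lin28b and Igdcc3), against 4.06% and 3.38%. A shallow endothelium-like cluster, with medians of 2020.5 and 2343 UMIs per cell, had 3 of 7 (Trim71, Arid3a and Igdcc3), against 7.95% and 3.68%. Hepatic stellate precursor-like cells had 2 of 7 (Trim71 and Igdcc3), against 4.51% and 5.53%. The erythroid-like cluster present at both stages had 1 of 6 (Igf2bp1), against 14.6% and 11.4%, a share near the background. The median of all genes was itself above 0.1 in sympathoadrenal-like (0.12) and nephric-like cells (0.18) as well as over all cells.

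**Figure D3:**
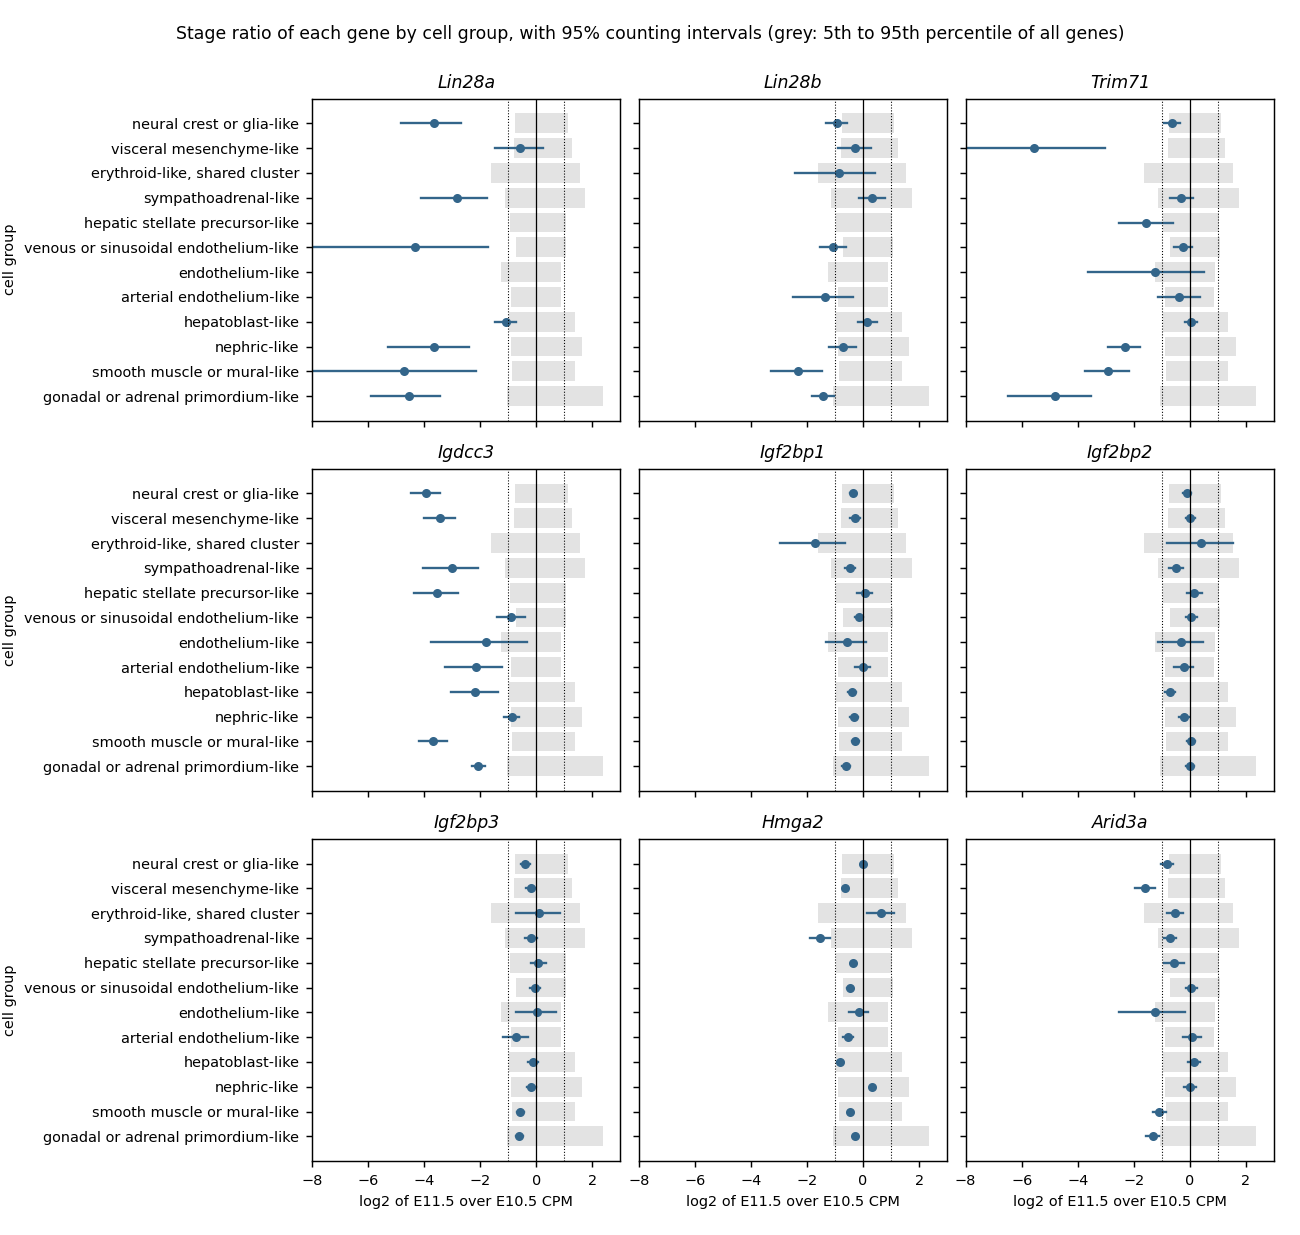
Log2 ratio of E11.5 over E10.5 for each gene in each group with at least 20 UMIs, with 95% counting intervals; grey bands give the 5th to 95th percentile of all genes, dotted lines mark 2-fold, and intervals beyond −8 are cut off. Igdcc3 points lie left of 0 in all 11 groups counted, and Igf2bp2 points lie on both sides, from −0.70 to 0.41.

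Lin28a and Lin28b, the RNA-binding proteins that block let-7 maturation, had different patterns. Lin28a (ENSMUSG00000050966, chr4:134003330-134018841 in mm10, as for the coordinates that follow) was at 38.1 CPM in hepatoblast-like cells at E10.5 and 17.9 CPM at E11.5, the highest of 24 groups with at least 50 cells at E10.5 and of 26 at E11.5. At E11.5 the hepatoblast-like interval (15.2 to 20.9) lay above that of the next group, mesothelium-like cells at 8.52 CPM (6.39 to 11.2). The other 24 of 25 pairs of neighbours in that order had overlapping intervals. At E10.5 all 23 pairs did, the highest one included. In 8 groups where it was counted the log2 ratio ran from −4.72 to −0.59, and 7 of the 8 were at least 2-fold lower. In neural crest or glia-like cells it was at 21.9 CPM and then 1.74 CPM (−3.66, −4.82 to −2.69), and in nephric-like cells at 20.3 and 1.60 CPM (−3.66, −5.31 to −2.41). In gonadal or adrenal primordium-like cells it was at 16.8 and 0.720 CPM (−4.55, −5.90 to −3.45), and in sympathoadrenal-like cells at 18.3 and 2.56 CPM (−2.83, −4.11 to −1.76). In every one of these groups the E10.5 level was above the E11.5 level beyond counting error. The smallest difference was in visceral mesenchyme-like cells, at 8.0 and 5.30 CPM (−0.59), where the interval of −1.47 to 0.25 spans 0. The venous or sinusoidal endothelium-like ratio of −4.33 (−9.69 to −1.72) and the smooth muscle or mural-like ratio of −4.72 (−10.07 to −2.14) rest on 1 UMI each at E11.5.

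The share of cells with a Lin28a UMI in the hepatoblast-like class was 56.6% at E10.5 and 35.8% at E11.5, where median depths were 34650 and 33479.5 UMIs. With each cell thinned to 5000 UMIs, the shares were 12 of 74 cells (16.2%) and 21 of 236 (8.90%). In the erythroid-like cluster shared by both stages, which serves as the reference for free RNA with medians of 31200 and 17971 UMIs, the share was 2.15% at E10.5, or 0.562% when thinned, and 0 of 179 cells at E11.5, with an exact upper bound of 2.04%. Haemoglobin, at 47.9% and 69.1% of UMIs in that cluster, was counted within the 5000 UMIs. Thinned cells of the cluster thus held fewer UMIs of other genes than hepatoblast-like ones, which lowers the reference share. The hepatoblast-like share lay above the share in that reference at both stages, at unequal depth. The stages fall mostly into different clusters here: cluster 35 held 82 cells from E10.5 and 53 from E11.5, the latter with a median of 1984 UMIs, and cluster 27 held 235 cells at E11.5. Lin28a was at 38.4 CPM in cluster 35 at E10.5 and 17.5 CPM in cluster 27, while the 53 shallow cells were at 38.8 CPM from 6 UMIs. The hepatoblast-like ratio of −1.09 (−1.46 to −0.72) became −0.79 in thinned cells, −0.71 as a mean over cells and −0.97 with the cells of highest doublet score kept.

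Lin28b (ENSMUSG00000063804, chr10:45376620-45486395) was lower in most groups and not in the hepatoblast-like class. There it was at 33.7 CPM and then 37.3 CPM (0.15, −0.19 to 0.49), and in sympathoadrenal-like cells at 22.0 and 27.6 CPM (0.33, −0.15 to 0.80). Both intervals span 0. Smooth muscle or mural-like cells went from 11.1 to 2.23 CPM (−2.32, −3.29 to −1.46), gonadal or adrenal primordium-like cells from 26.7 to 9.87 CPM (−1.43, −1.82 to −1.05) and arterial endothelium-like cells from 23.8 to 9.22 CPM (−1.37, −2.51 to −0.37). The venous or sinusoidal ratio of −1.06 (−1.53 to −0.60) became −0.78 as a mean over cells. The highest level at E11.5 was in granulocyte or monocyte progenitor-like cells at 49.2 CPM, but all 25 pairs of neighbours in the order of groups at that stage had overlapping intervals.

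**Figure D4:**
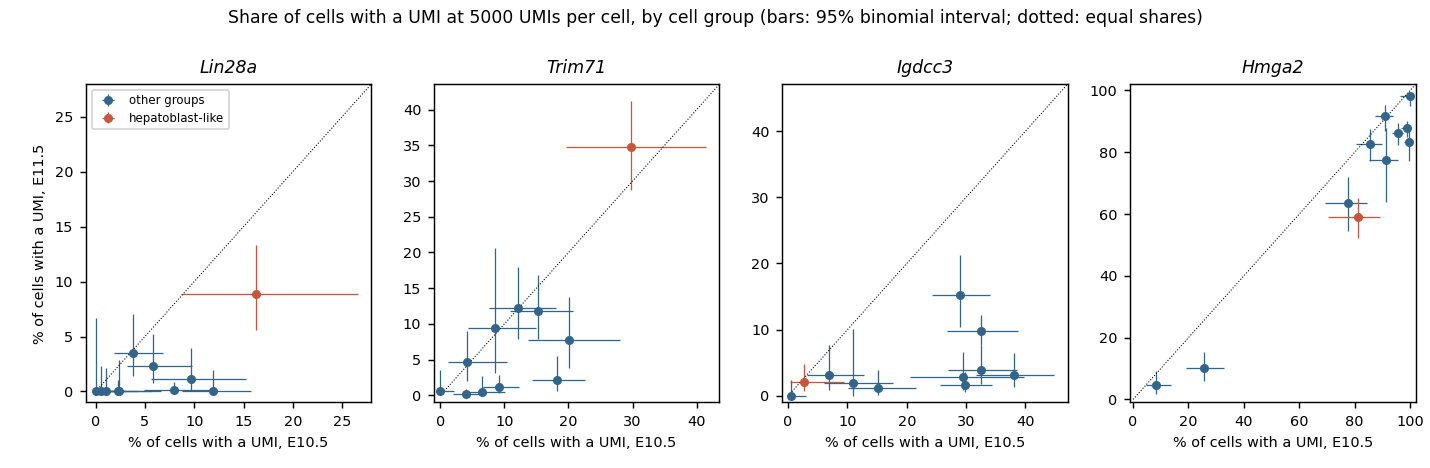
Percentage of cells with at least 1 UMI of Lin28a, Trim71, Igdcc3 or Hmga2 at E10.5 (x axis) and E11.5 (y axis), after thinning each cell to 5000 UMIs; each point is a group, bars are 95% binomial intervals and the dotted line marks equal shares. Hepatoblast-like cells (red) were at 16.2% and 8.90% for Lin28a and at 29.7% and 34.7% for Trim71.

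Trim71, the homologue of the nematode Lin-41 and an RNA-binding protein with a ubiquitin ligase domain (ENSMUSG00000079259, chr9:114507133-114564369), had its highest level at both stages in hepatoblast-like cells, among groups of at least 50 cells. At E10.5 the interval overlapped that of an unnamed cluster at 77.8 CPM. In hepatoblast-like cells it was at 88.5 CPM at E10.5 and 89.9 CPM at E11.5 (0.02, −0.19 to 0.24), and its share of cells was 77.1% and 75.7%, against 1.08% and 1.12% in the erythroid-like reference. In thinned cells the shares were 29.7% and 34.7%, against 0 and 0.645%. In 6 of 11 groups it was at least 2-fold lower at E11.5. Gonadal or adrenal primordium-like cells were at 14.6 and 0.514 CPM (−4.82, −6.49 to −3.54), smooth muscle or mural-like at 21.9 and 2.92 CPM (−2.91, −3.73 to −2.19) and nephric-like at 47.9 and 9.6 CPM (−2.32, −2.91 to −1.78). Hepatic stellate precursor-like cells were at 20.2 and 6.84 CPM (−1.56, −2.53 to −0.62). The shallow endothelium-like ratio, 30.8 and 13.0 CPM (−1.25), has an interval of −3.63 to 0.49 and was −0.93 as a mean over cells. The visceral mesenchyme-like ratio of −5.57 (−10.90 to −3.03) rests on 1 UMI at E11.5, from 52 at E10.5. Neural crest or glia-like cells, at 46.7 and 29.9 CPM (−0.64), and sympathoadrenal-like cells, at 36.2 and 29.2 CPM (−0.31), were lower by less than 2-fold, as were venous (−0.25) and arterial (−0.37) endothelium-like cells.

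Igdcc3, a cell-surface protein of the immunoglobulin superfamily (ENSMUSG00000032394, chr9:65141189-65185872), was lower in all 11 groups where it was counted, and at least 2-fold lower in 9. At E10.5 its level was 659 CPM in neural progenitor-like cells, 302 CPM in notochord or floor plate-like and 220 CPM in neuron-like cells, and no group of at least 50 cells held over 45.1 CPM at E11.5. The E11.5 library had 0 neural progenitor-like and 0 notochord or floor plate-like cells and 34 shallow neuron-like cells, so these high levels have no counterpart at E11.5. High levels were not limited to these named groups. Unnamed clusters 7, 4, 12 and 6 were at 277, 258, 218 and 162 CPM at E10.5. They held 568, 665, 457 and 568 cells at E10.5 and 2, 1, 0 and 7 at E11.5. In the neural crest or glia-like group the level went from 103 to 6.75 CPM (−3.93, −4.46 to −3.43). Gonadal or adrenal primordium-like cells were at 104 and 24.9 CPM (−2.06) and visceral mesenchyme-like cells at 91.4 and 8.47 CPM (−3.43). Smooth muscle or mural-like (80.9 and 6.35 CPM, −3.67), hepatic stellate precursor-like (79.8 and 6.84 CPM, −3.54) and sympathoadrenal-like cells (28.2 and 3.52 CPM) were lower by a like amount. Igdcc3 was already low at E10.5 in hepatoblast-like cells, at 12.0 CPM, with 2.62 CPM at E11.5 (−2.19). Arterial endothelium-like cells were at 41.0 and 9.22 CPM (−2.15), and the shallow endothelium-like ratio of −1.80 was −0.99 as a mean over cells. The 2 groups under 2-fold were nephric-like cells, at 82.1 and 45.1 CPM (−0.86, −1.14 to −0.60), and venous or sinusoidal endothelium-like cells, at 20.7 and 11.1 CPM (−0.89, −1.41 to −0.39). In the neural crest or glia-like group the thinned share of cells with a UMI was 38.1% and 3.18%, against 0.562% and 0 in the erythroid-like reference. Over all cells the share with a UMI was 59.3% in the E10.5 library and 14.0% in the E11.5 library.

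The Igf2bp proteins bind mRNAs and are named for that of Igf2. Their stage ratios lay nearer to 0 than those of Lin28a and Igdcc3, with medians over the groups of −0.34, −0.05 and −0.18 against −3.66 and −2.19. Igf2bp1 (ENSMUSG00000013415, chr11:95957163-96005940) lay between −0.60 in gonadal or adrenal primordium-like cells (127 and 83.6 CPM) and 0.06 in hepatic stellate precursor-like cells (142 and 148 CPM) in every group but the erythroid-like cluster. In the latter it was at 26.7 and 8.19 CPM, a log2 ratio of −1.70 (−2.97 to −0.65). Igf2bp2 (ENSMUSG00000033581, chr16:22059009-22163299) was past 2-fold in no group. It was at 148 and 90.9 CPM in hepatoblast-like cells (−0.70) and at 120 CPM at both stages in gonadal or adrenal primordium-like cells (0.00). Among the endothelium-like groups the arterial and the venous or sinusoidal one had Igf2bp1 at 155 and 154 CPM and at 163 and 147 CPM. Igf2bp3 (ENSMUSG00000029814, chr6:49085223-49214957) was likewise past 2-fold in none, with its lowest ratio in arterial endothelium-like cells at 85.3 and 51.6 CPM (−0.72, −1.18 to −0.28). Gonadal or adrenal primordium-like cells had Igf2bp3 at 188 and 124 CPM (−0.60), and smooth muscle or mural-like cells at 192 and 129 CPM (−0.57).

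Hmga2, an architectural chromatin protein with AT-hooks (ENSMUSG00000056758, chr10:120361275-120476469), was lower at E11.5 in 10 of 12 groups and higher in 2. It was at 1579 CPM at E10.5 and 1229 CPM at E11.5 in hepatic stellate precursor-like cells (−0.36) and at 989 and 817 CPM in gonadal or adrenal primordium-like cells (−0.28). The highest level at either stage lay outside the compared groups, at 1809 CPM in unnamed cluster 2 (950 cells at E11.5, 0 at E10.5). Unnamed cluster 16 and mesothelium-like cells were at 1550 and 1517 CPM at E11.5, with 0 and 1 cells at E10.5. Hepatoblast-like cells were at 328 and 185 CPM (−0.82, −0.94 to −0.70), whereas cells like neural crest or glia were at 625 and 621 CPM (−0.01). Visceral mesenchyme-like cells were at 1199 and 772 CPM (−0.64) and smooth muscle or mural-like cells at 810 and 591 CPM (−0.46). Of the endothelium-like groups, the arterial one was at 521 and 361 CPM (−0.53), the venous or sinusoidal one at 376 and 269 CPM (−0.48) and the shallow one at 481 and 433 CPM (−0.15). In 8 of 12 groups the interval lay below 0, and in 2 above it.

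Sympathoadrenal-like cells had the lowest Hmga2 level of those groups at E11.5, 28.2 CPM against 80.8 CPM at E10.5 (−1.52, −1.89 to −1.17). The ratio became −0.32 with the cells of highest doublet score kept. Of 5 counted collagen genes, markers of mesenchyme, 4 were at least 2-fold lower in the same cells, against 6.14% of all genes, with Col1a2 at 85.5 and 21.5 CPM (−1.99) and Col5a2 at 34.1 and 12.5 CPM (−1.45). Their part in the Hmga2 ratio was not tested. In the erythroid-like cluster Hmga2 was at 38.6 and 59.4 CPM (0.62, 0.14 to 1.09), from 110 and 58 UMIs. Haemoglobin made up 47.9% and 69.1% of UMIs there, and the ratio became −0.10 in CPM over all genes and −0.36 in thinned cells. All 4 counted collagen genes were at least 2-fold higher there at E11.5, against 11.4% of all genes, with Col1a2 at 3.16 and 64.5 CPM (4.35), and their part was not tested. In nephric-like cells Hmga2 was at 576 and 712 CPM (0.31, 0.23 to 0.38) and −0.64 at a Leiden resolution of 0.5. All 7 counted collagen genes were at least 2-fold higher there, against 11.7% of all genes, Col6a1 by 2.95 and Col1a2 by 2.64 on the log2 scale.

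Arid3a, a transcription factor with an AT-rich interaction domain (ENSMUSG00000019564, chr10:79927043-79955018), was at 181 CPM at E10.5 in the erythroid-like cluster, the highest level of the groups of at least 50 cells, and at 126 CPM there at E11.5 (−0.52, −0.82 to −0.24). It was at least 2-fold lower in 4 of 12 groups. Visceral mesenchyme-like cells were at 70.3 and 23.3 CPM (−1.59, −1.95 to −1.24) and gonadal or adrenal primordium-like cells at 60.9 and 24.2 CPM (−1.33). The smooth muscle or mural-like ratio was −1.09, and the shallow endothelium-like ratio −1.25. All 4 rest on the settings: the first was −0.94 at a Leiden resolution of 2.0, the second −0.86 there, the third −0.98 in thinned cells and the fourth −0.75 as a mean over cells. In venous (0.06) and arterial (0.09) endothelium-like, hepatoblast-like (0.14) and nephric-like cells (0.01) it was within 0.2 of 0.

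Some cells fell outside the compared groups and are given by level. The primordial germ cell-like cluster held 21 cells at E10.5, with a median of 3991 UMIs, and 38 at E11.5, with a median of 28921. Lin28a was at 44.6 and 48.6 CPM there, and Trim71 at 62.5 and 134 CPM. Igf2bp1 was at 103 and 123 CPM and Igdcc3 at 58.0 and 40.5 CPM. Hmga2 was at 156 CPM (109 to 217) and 13.2 CPM (7.0 to 22.5), although the depths differed and the cells were few. At E10.5, 6 cells had UMIs of at least 3 of 6 germ cell markers, and 5 of them lay in this cluster, so most of its 21 cells did not pass that marker count. The 6 cells had a median of 34383.5 UMIs, so passing the count also depends on depth. Hmga2 was at 49.2 CPM (21.2 to 96.9, 8 UMIs) in those 6 cells, below the level in the cluster. At E11.5, 34 of 35 such cells lay in the cluster, with Hmga2 at 17.3 CPM (10.1 to 27.7). The intervals of the stages overlap when cells are chosen by these markers. Overlap of separate intervals does not show that the levels are equal, and no ratio was computed for these cells.

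Of the cells with at least 2 UMIs each of Cdh5, an endothelial gene, and Runx1, a factor of blood emergence, 16 cells came from the E10.5 library and 13 from the other. Hmga2 was at 1042 and 291 CPM in them, Lin28b at 39.5 and 18.8 CPM, and Trim71 at 43.3 and 11.8 CPM. These cells held 785623 and 425526 counted UMIs in all. The E11.5 levels of Lin28b and Trim71 thus rest on a few molecules, and no ratio was computed. Granulocyte or monocyte progenitor-like cells (27 and 117) had Hmga2 at 758 and 191 CPM, with Lin28b at 44.6 and 49.2 CPM and Igf2bp3 at 90.1 and 92.1 CPM. Macrophage-like cells (32 and 97) had Lin28a at 0 in both, or 5.03 and 1.72 CPM if 0 is read as 3 counts, with exact upper limits of 6.19 and 2.11 CPM. They had Hmga2 at 129 and 42.3 CPM, while Arid3a was at 161 and 149 CPM and Igf2bp3 at 131 and 129 CPM. In 491 erythroid-like cells of a cluster compared at E11.5 alone, Lin28b was at 44.5 CPM, Igf2bp1 at 93.5 CPM and Arid3a at 19.5 CPM. Lin28a was at 0 there, or 0.238 CPM if read as 3 counts, with an exact upper limit of 0.293 CPM. In a second such cluster of 273 cells, in which haemoglobin made up 8.98% of UMIs, Lin28b was at 33.9 CPM and Igf2bp1 at 40.5 CPM.

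In single hepatoblast-like cells at E11.5, thinned to 5000 UMIs, 9 of 236 had both Lin28a and Trim71, where the product of the shares is 7.3 cells. Of the same cells, 15 had Lin28b and Trim71, against a product of 12.9. At E10.5 the first pair was seen in 2 of 74 cells, against 3.6.

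Across groups holding 50 cells or more, 24 at the earlier stage and 26 at the later, log2 CPM of Igf2bp2 had a correlation with that of Hmga2 of 0.70 at E10.5 and 0.91 at E11.5. Igf2bp1 and Igf2bp2 were at 0.88 and 0.71. Lin28a and Lin28b were at 0.44 and 0.38, and Lin28b and Hmga2 at 0.08 and −0.58. At E11.5 Lin28a was at 17.9 CPM in hepatoblast-like cells and at 8.52 CPM or less elsewhere, so its correlations there lean on that class. These are descriptions, since groups share a library and its depth. The likeness given next pools both libraries, so differences between them enter it. By the same kind of measure over 50 points of group and library, the genes most like Hmga2 were Yap1 (0.90), Efna4 (0.89) and Tcf7l1 (0.88). Those most like Trim71 were Sall4 (0.86), Amt (0.79) and Fignl2 (0.75), and those most like Lin28a were Tmx2, Slc25a33 and Sall4 (0.69 each). Igdcc3 was most like Rabl2 (0.89), Hnrnpl (0.88) and Prtg (0.86), and Igf2bp2 most like Rhobtb3 (0.95), Ptov1 (0.95) and Spats2 (0.94). For Igf2bp1 the genes were Prpsap1, Ythdf2 and Gpn1, with 0.87, 0.83 and 0.83, and for Igf2bp3 Btbd2, Dcakd and Slc25a4, with 0.88, 0.87 and 0.87. Lin28b reached 0.72 with Noa1 and Farsa and 0.70 with Naa15, and Arid3a 0.63 with Wbp2, 0.60 with Nipsnap3b and 0.57 with Edem1.

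The other genes of the pathway were described from lists made for it. The uridylyl transferases Zcchc11 (Tut4) and Zcchc6 (Tut7), which LIN28 recruits, were at 189 and 210 CPM (0.15) and at 46.3 and 72.9 CPM (0.66) over all cells, and the decay nuclease Dis3l2 at 16.3 and 16.8 CPM (0.04). Of these 3, the 1 past 2-fold in any group was Dis3l2 in the erythroid-like cluster (−1.12), on 19 and 3 UMIs. Of 9 microRNA processing genes, 2 were past 2-fold in the erythroid-like cluster, Drosha (−1.36) and Ddx17 (1.23). There 14.6% of all genes were lower and 11.4% higher. In sympathoadrenal-like cells 2 were 2-fold higher, where 6.14% of all genes were lower and 12.8% higher. Ago4, of 8 Argonaute and silencing genes, was past 2-fold in sympathoadrenal-like cells (1.05), a share near the 12.8% of all genes higher there. In hepatoblast-like cells 1 of 7 counted was 2-fold higher, against 8.05% of all genes. Of the transcripts listed as microRNA hosts, Mir17hg was at 15.9 and 9.64 CPM over all cells (−0.72), and Mirt1 at 17 and 56 UMIs (1.67). Neither was among the genes found to hold a let-7 hairpin, and whether Mirt1 hosts a microRNA was not checked.

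Of 25 other known let-7 targets, 0 were 2-fold lower and 1 was 2-fold higher over all cells, against 4.49% and 16.1% of all genes, with a median of 0.02. The most that were lower in any group were the 5 of 25 in hepatoblast-like cells, where 2 were higher and 4.66% of all genes were lower and 8.05% higher. In the other groups between 0 and 4 were lower. In hepatoblast-like cells Ccnd2, a cyclin, was at 180 and 72.4 CPM (−1.31) and Mycn at 48.6 and 20.5 CPM (−1.25). Igf1r, a receptor for insulin-like growth factors, was at −1.62 in these cells and Cbx2, a Polycomb protein, at −1.27. Igdcc4, a relative of Igdcc3, was at 1.8 and 12.9 CPM (2.83) in them. Among the 633 other genes with an 8-base let-7 match in the 3′ UTR, 559 were counted over all cells. Of these, 24 were 2-fold lower and 81 higher, against 4.49% and 16.1% of all genes, and their median was 0.18, beside 0.16 for all genes. In gonadal or adrenal primordium-like cells, where 5 members were lower, the median of these genes was 0.05, beside 0.06.

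Of 13 genes of the insulin-like growth factor axis, 4 were 2-fold higher and 0 lower over all cells, with a median of 0.55, where 16.1% of all genes were higher. The groups differed: in sympathoadrenal-like cells 6 of 12 counted were below 0 and 4 were 2-fold higher, and in arterial endothelium-like cells 5 of 11 were below 0, with 1 lower and 1 higher by 2-fold. Of all genes, 12.8% were 2-fold higher in the former, and 4.06% were lower and 3.38% higher in the latter. In visceral mesenchyme-like cells, one of the groups with the most past 2-fold, 6 of 13 were higher, against 7.62% of all genes: Igfbp5 at 202 and 864 CPM (2.09), Igfbp2 (1.73), Igfbp3 (1.39), Irs1 (1.23), Irs2 (1.13) and Igf2 (1.09). Igf2 shares its strand with the overlapping gene Gm49394, so its counts may be partial. In smooth muscle or mural-like cells, relatives of the members past 2-fold were Hmga1 at 32.1 and 11.7 CPM (−1.46), Trim2 (−1.16) and Igdcc4 (1.41).

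The genes of the cell cycle and of the tissue matrix differed between the groups in which members were lower. In sympathoadrenal-like cells 12 of 12 G2 and M phase genes were at least 2-fold higher at E11.5, among them Mki67 at 18 and 247 CPM (3.78), Cenpf (3.74) and Top2a (2.90), and 7 of 12 S phase genes were, among them Rrm2 (1.73) and Mcm3 (1.38). Of all genes, 12.8% were 2-fold higher there. In gonadal or adrenal primordium-like cells 10 of 12 G2 and M phase genes were 2-fold lower, against 5.47% of all genes. The part of the cell cycle in the members' ratios was not tested.

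Host genes whose introns or exons hold let-7 hairpins were Wdr82 at 44.8 and 45.1 CPM (0.01), Spaca6 at 27.0 and 30.4 CPM (0.17), Huwe1 at 125 and 164 CPM (0.39) and 6720427I07Rik at 11.1 and 9.46 CPM (−0.23) over all cells. They were picked with the data in view, and host transcripts do not measure the microRNA.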

How the data were processed

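Per the labels' protocols, tissue was dissociated with enzymes and libraries were made with the 10x 3′ kit. Per the submitters' processing notes, the authors used Cell Ranger 5.0.0 with mm10 (GRCm38), and the deposited values are whole UMI counts per gene and barcode; whether counting used strand is not given in the sources used here. Totals were 151474708 UMIs in 10996 barcodes at E10.5 and 159619785 in 12289 at E11.5. Barcodes were kept from 1000 UMIs and 500 genes upwards if mitochondrial genes gave no more than 10% of UMIs (8705 and 9756). The automatic threshold of the doublet caller marked 0 cells, so the 8% with the highest score were removed (696 and 780). Clustering (scanpy 1.11.5, Leiden at resolution 1.0, 2000 variable genes per library, 40 components, 15 neighbours) left out the members and the listed genes. A cluster could take a name when 3 or more of its markers exceeded the remaining clusters 3-fold and reached 20 CPM. It stayed unnamed if markers of another list outnumbered its own among its 10 leading genes, or equalled them where lists tied. Shallow clusters with none of their own markers among those genes also stayed unnamed. The arterial and venous names needed a set share of their list as well.

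Ratios were computed in groups of at least 50 cells in each library, for genes with at least 20 UMIs in both together. Intervals are exact at 95% (Poisson for CPM, Clopper-Pearson for shares, conditional for ratios), and a count of 0 was read as at most 3 counts. The interval code was tested on simulated data. All members are named in the text. From the other lists, genes past 2-fold are named in the group with the most of them (the earlier in table order where groups tied, at most 6 each), with the genes listed for let-7 uridylation and as microRNA hosts. For likeness, the 3 genes with the highest correlation of log2(CPM + 10) are named, among genes with at least 50 CPM at some point. The members and lists were chosen with earlier results of these data known. The naming thresholds, the use of single clusters or pooled classes, the overlap rule for matching groups and the search for let-7 matches were set with the data in view. Tut4 and Tut7 are in the counts as Zcchc11 and Zcchc6. Python 3.11.15, numpy 2.4.6, scipy 1.17.1, pandas 2.3.3, anndata 0.12.19, scikit-learn 1.9.0, leidenalg 0.10.2, igraph 0.11.9 and matplotlib 3.10.9 were used. Other settings tried were cells from 2000 UMIs, a mitochondrial limit of 5%, no doublet removal, resolutions of 0.5 and 2.0, CPM over all genes, ratios relative to the median of all genes, the mean over cells, thinned cells and at least 100 UMIs.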

Additional observations from a re-analysis of the deposited data

Results flagged for a closer look

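Hmga2 had a log2 ratio of −1.52 in sympathoadrenal-like cells and of 0.62 in the erythroid-like cluster present at both stages, so it was lower at E11.5 in 1 group and higher in the other. The difference between these groups was not tested. The values depended on the settings: the erythroid-like ratio was −0.10 in CPM over all genes and −0.36 in thinned cells, and the sympathoadrenal-like ratio was −0.32 with the cells of highest doublet score kept.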

How the results depend on the processing

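With 1 library per stage, the spread between embryos is unknown, and 1 UMI decides some ratios. The tallies below give how many of the 9 genes were at least 2-fold lower. With at least 100 UMIs required, the count went from 1 to 0 in the erythroid-like cluster, 2 to 1 in hepatic stellate precursor-like, venous endothelium-like and hepatoblast-like cells, 3 to 0 in the shallow endothelium-like cluster, 2 to 0 in arterial endothelium-like cells, and 5 to 3 in smooth muscle or mural-like and gonadal or adrenal primordium-like cells; fewer genes are tested there. In CPM over all genes the erythroid-like count was 3. In thinned cells it was 1 in stellate precursor-like, shallow endothelium-like and arterial endothelium-like cells, 0 in hepatoblast-like and 3 in smooth muscle or mural-like cells. As a mean over cells it was 1 in venous endothelium-like, shallow endothelium-like and hepatoblast-like cells. It was 5 in visceral mesenchyme-like cells at a resolution of 0.5, 1 in venous and shallow endothelium-like cells with at most 5% mitochondrial UMIs, and, with doublets kept, 2 in the erythroid-like cluster and 1 in hepatoblast-like cells. The cause was not tested. The other 96 such values stayed within 1.5 times. For the 35 ratios past 2-fold, 267 of 280 alternative values were still past it and 0 changed sign. Some alternatives could not differ from the main value. Requiring 100 UMIs leaves a ratio as it was, and some groups held the same cells at another resolution. Hepatoblast-like, hepatic stellate precursor-like and arterial endothelium-like cells did so at both 0.5 and 2.0. Neither tally is therefore a measure of stability. No matching group was found for 10 combinations: a resolution of 0.5 in gonadal or adrenal primordium-like cells, a resolution of 2.0 in the erythroid-like cluster, a minimum of 2000 UMIs in visceral mesenchyme-like and shallow endothelium-like cells, at most 5% mitochondrial UMIs in visceral mesenchyme-like, sympathoadrenal-like, arterial endothelium-like and gonadal or adrenal primordium-like cells, and doublets kept in visceral mesenchyme-like and gonadal or adrenal primordium-like cells. No paired analysis was possible because each stage has 1 library.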
